A study of Mus musculus with 6 samples.

Results

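Transcripts of 10 genes that mark endothelial cells were compared between cells with high and cells with low CD133, sorted by flow cytometry from mouse 344SQ tumours. The genes are Pecam1, Cdh5, Kdr, Flt1, Tek, Tie1, Vwf, Cldn5, Esam and Emcn, taken by symbol from the probe sets assigned to one gene alone, which gives 14 probe sets of the 45037 tested and 10 of the 18193 genes measured. 344SQ is a lung adenocarcinoma line from a mouse of genotype KrasLA1/+; p53R172HdelG/+, and its cells were grown as subcutaneous tumours in syngeneic mice. Both fractions come from such tumours and share this line and its alleles. RNA of the CD133 high fraction was hybridised to 3 arrays and RNA of the CD133 low fraction to 3 arrays. The labels give no age, treatment or animal number. Nor do they tell if each array stands for its own tumour or mouse, and the spread behind the p-values may therefore be technical in part or in whole.

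Endothelial cells line blood vessels. In a tumour grown from an injected line they come from the host mouse. They answer vascular endothelial growth factors (VEGFs) through the receptor tyrosine kinases encoded by Kdr and Flt1, and angiopoietins through the kinase encoded by Tek, which works together with its relative Tie1. Neighbouring endothelial cells hold together through VE-cadherin, claudin-5, ESAM and PECAM-1, and endothelium also carries the sialomucin endomucin and stores von Willebrand factor. The fractions were measured in bulk. A different number of endothelial cells, different RNA per endothelial cell and RNA of other cells with some of these transcripts therefore cannot be told apart.

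Values are given per probe set on the log2 scale, and a positive difference means higher in the CD133 high fraction. No detection call was used, so a probe set's value is not by itself evidence of signal above background. The means of the brightest probe sets of the 10 genes lay between the 54.3 and the 89.9 percentile of all probe sets. CD133 high replicate 1 stood apart from CD133 high replicates 2 and 3. Its mean Spearman rho across probe sets was 0.931 to the other CD133 high arrays and 0.973 to the CD133 low arrays. The bacterial hybridisation controls averaged 10.38, 11.29 and 11.04 on CD133 high replicates 1, 2 and 3, against 10.19, 10.51 and 10.22 on the CD133 low arrays. The 3' probe set of the Gapdh control differed from the middle one by −0.13, 0.44 and 0.46 on the CD133 high arrays and by −0.09, −0.09 and −0.07 on the CD133 low arrays. Prom1, which encodes CD133 itself, read 6.80, 6.63 and 6.40 on the CD133 high arrays, all above the 5.49, 5.92 and 6.06 on the CD133 low arrays, with a difference of 0.79 (SE 0.26, adjusted p = 0.297 in limma). The 10 genes are therefore given with and without CD133 high replicate 1.

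None of the 14 endothelial probe sets passed the threshold of an adjusted p of 0.05 in limma with all 6 arrays, and 0 of them had an unadjusted p under 0.05. Across the array 0.182% of probe sets passed, and 15.7% had an unadjusted p under 0.05. At their brightest probe sets 6 of the 10 genes had a positive and 4 a negative difference, with a median of 0.0047 beside 0.0013 over all genes. The differences ran between −0.69 (Emcn) and 0.32 (Cdh5). The 10 genes differed from each other in how the CD133 high arrays were spread. On 5 of the 14 probe sets, those of Pecam1, Emcn, Vwf and Cldn5 and one of Flt1, CD133 high replicate 1 lay above all CD133 low arrays while CD133 high replicates 2 and 3 lay below all of them, an arrangement found in 6.87% of all probe sets. On 3 probe sets, that of Tek and both of Cdh5, CD133 high replicates 2 and 3 lay above all CD133 low arrays, as in 26.5% of all probe sets. The plot of the 10 genes by array shows both arrangements.

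**Figure D1:**
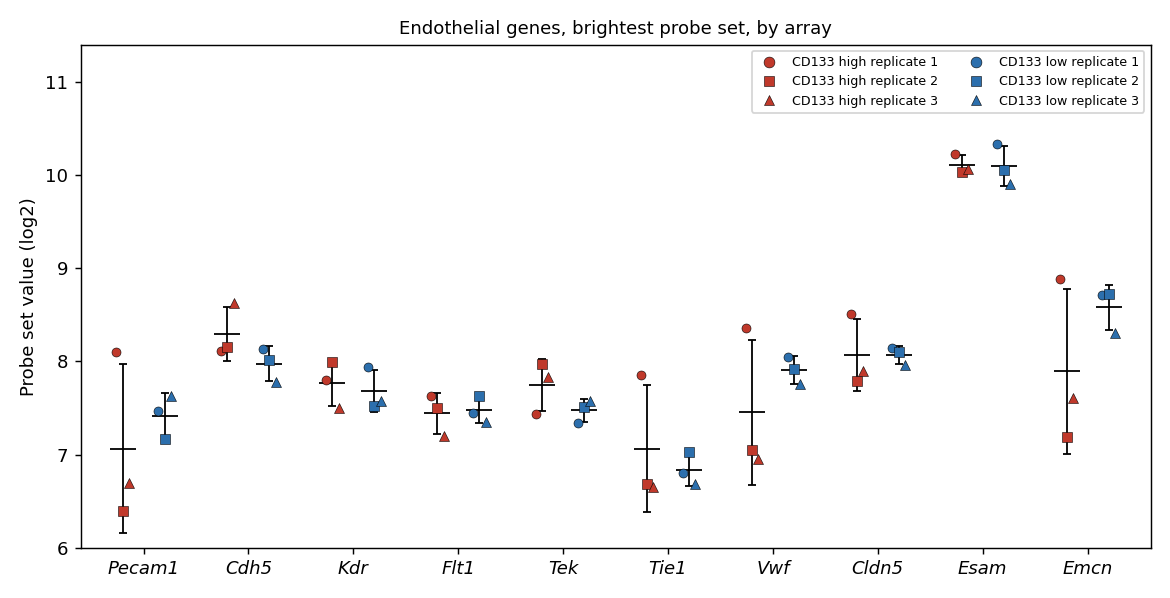
Log2 value of the brightest probe set of each of the 10 endothelial genes on the 3 CD133 high arrays (red, left of each pair) and the 3 CD133 low arrays (blue, right). Horizontal lines are group means and bars are SDs over 3 arrays. For Pecam1, Vwf, Cldn5 and Emcn the CD133 high circle (replicate 1) is above every CD133 low point, and the square and triangle (replicates 2 and 3) are below every one.

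Promoter windows of Emcn and Tek are given because their values on CD133 high replicates 2 and 3 lay on opposite sides of the CD133 low arrays. They come from a table of RefSeq promoter windows (GRCm38.p6), built as 250 bases before to 50 after a start, and the start used there is not the outer bound of the gene given below. Of the 300 bases, 47 lie before that bound and 253 inside the gene for Tek, and 234 lie before it and 66 inside for Emcn. The promoter table matched 6 of the 10 genes. Capitals mark the letters AGGAA or CGGAA on either strand. These are forms of the core recognised by ETS factors, a family of transcription factors active in endothelium. Other forms of the core were not counted. Overlapping matches would each be counted. The Emcn sequence lies on the plus strand at chr3:137340828-137341127 and the Tek sequence on the plus strand at chr4:94739039-94739338.
Emcn: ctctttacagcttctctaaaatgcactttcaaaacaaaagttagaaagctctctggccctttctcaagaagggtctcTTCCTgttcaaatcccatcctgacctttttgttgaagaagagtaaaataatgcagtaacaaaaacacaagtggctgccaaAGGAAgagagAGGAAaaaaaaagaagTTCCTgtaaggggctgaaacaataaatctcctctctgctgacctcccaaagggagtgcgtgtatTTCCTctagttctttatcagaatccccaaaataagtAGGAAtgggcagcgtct
Tek: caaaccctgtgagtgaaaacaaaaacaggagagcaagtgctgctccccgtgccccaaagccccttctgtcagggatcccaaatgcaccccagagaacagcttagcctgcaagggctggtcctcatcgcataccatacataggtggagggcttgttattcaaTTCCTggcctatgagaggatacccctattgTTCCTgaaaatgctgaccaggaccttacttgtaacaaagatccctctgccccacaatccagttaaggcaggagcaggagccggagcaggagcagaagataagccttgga
The Emcn window holds 6 matches, a number that 1.47% of 32851 promoter windows of the same length reach. The Tek window holds 2, which 47.8% reach, and 78.0% of all windows hold at least 1. The windows of Tie1, Kdr, Flt1 and Cldn5 hold 5, 2, 2 and 0 matches, and those of Kdr and Flt1 lie wholly inside the bounds of their genes. A match describes the letters of the window and is no evidence of binding.

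Among the receptors for VEGF, Kdr, which encodes the main signalling receptor of VEGF-A (chromosome 5, 75932827 to 75979072, GRCm38.p6), had values of 7.80, 7.99 and 7.50 on CD133 high replicates 1, 2 and 3, against 7.94, 7.52 and 7.58 on CD133 low replicates 1, 2 and 3. The fractions overlapped, with a difference of 0.09 (SE 0.21, 95% interval −0.41 to 0.58, adjusted p = 0.844). Leaving out CD133 high replicate 1 gave 0.07 (SE 0.22). Kdr was thus among the steadier genes, in that neither group ranged over more than 0.49.

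Flt1 encodes a receptor that binds VEGF-A tightly and also exists in a soluble form that captures the ligand (chromosome 5, 147561604 to 147726438). Its 4 probe sets did not give the same picture. The brightest, 1454037_a_at, read 7.62, 7.50 and 7.20 on the CD133 high arrays and 7.45, 7.63 and 7.35 on the CD133 low arrays, a difference of −0.03 (SE 0.19, adjusted p = 0.942). The dimmest, 1440926_at, read 7.10, 5.91 and 6.05 on the CD133 high arrays and 6.63, 6.26 and 6.85 on the CD133 low arrays, a difference of −0.22 (SE 0.37, adjusted p = 0.768). In that probe set the CD133 high arrays ranged over 1.18, with replicate 1 above and replicates 2 and 3 below all CD133 low arrays. The remaining probe sets of Flt1 differed by 0.17 (1451756_at) and −0.09 (1419300_at). Leaving out CD133 high replicate 1 gave −0.12 (SE 0.18, adjusted p = 0.653) for the brightest and −0.60 (SE 0.25, adjusted p = 0.154) for the dimmest probe set of Flt1. Which transcript form each probe set reads was not analysed here.

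Tek encodes TIE2, the angiopoietin receptor (chromosome 4, 94739086 to 94874976). It had values of 7.43, 7.97 and 7.83 on the CD133 high arrays, against 7.34, 7.51 and 7.57 on the CD133 low arrays. The groups overlapped through CD133 high replicate 1, and the difference was 0.27 (SE 0.20, 95% interval −0.21 to 0.75, adjusted p = 0.504). Without that array the difference of Tek was 0.43 (SE 0.15) and its adjusted p of 0.0988 still missed the threshold.

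Tie1, an orphan receptor that forms complexes with TIE2 (chromosome 4, 118471191 to 118489849), read 7.85, 6.69 and 6.65 on the CD133 high arrays and 6.80, 7.02 and 6.68 on the CD133 low arrays. CD133 high replicate 1 was the highest array, exceeding the CD133 low mean by 1.02, and replicates 2 and 3 lay among or below the CD133 low arrays. The difference of Tie1 was 0.23 (SE 0.36, adjusted p = 0.755) with all arrays and −0.17 (SE 0.19, adjusted p = 0.581) without that array, so its direction rested on CD133 high replicate 1.

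The junction genes were divided as well. Cdh5, which encodes VE-cadherin, the adhesion molecule of endothelial adherens junctions (chromosome 8, 104101613 to 104144504), had values of 8.11, 8.15 and 8.63 on the CD133 high arrays and 8.14, 8.02 and 7.77 on the CD133 low arrays at its brighter probe set, a difference of 0.32 (SE 0.21, 95% interval −0.17 to 0.81, adjusted p = 0.444). Its dimmer probe set, 1422047_at, read 4.63, 5.15 and 5.04 on the CD133 high arrays and 4.44, 3.62 and 4.53 on the CD133 low arrays. These groups did not overlap, the 1 such case among the 14 probe sets, while groups did not overlap in 20.8% of all probe sets, with 10.3% higher and 10.5% lower in the CD133 high fraction. The difference there was 0.74 (SE 0.38, adjusted p = 0.363), at a level near the 20.7 percentile of all probe sets. Both probe sets of Cdh5 pointed the same way, also without CD133 high replicate 1, at 0.41 (adjusted p = 0.199) and 0.90 (adjusted p = 0.178).

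Cldn5, the main claudin of endothelial tight junctions (chromosome 16, 18776847 to 18778262), read 8.51, 7.79 and 7.90 on the CD133 high arrays, on either side of the 8.15, 8.10 and 7.96 on the CD133 low arrays. Its difference was 0.0015 (SE 0.23, adjusted p = 1.0) with all arrays and −0.22 (SE 0.13, adjusted p = 0.291) without CD133 high replicate 1. Esam, an immunoglobulin-like adhesion molecule of endothelial tight junctions and platelets (chromosome 9, 37528089 to 37538319), read 10.22, 10.03 and 10.06 on the CD133 high arrays and 10.34, 10.06 and 9.91 on the CD133 low arrays. The values of Esam overlapped throughout, with a difference of 0.0080, an SE of 0.16 (the smallest of the 10 genes) and a 95% interval of −0.38 to 0.40. It was −0.05 (SE 0.15, adjusted p = 0.836) with CD133 high replicate 1 left out.

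Pecam1 encodes CD31, an adhesion molecule of endothelium that leukocytes and platelets also carry (chromosome 11, 106654213 to 106715281). It read 8.10, 6.39 and 6.70 on the CD133 high arrays, against 7.47, 7.16 and 7.63 on the CD133 low arrays. The CD133 high arrays ranged over 1.70 and the CD133 low arrays over 0.47, and the difference was −0.36 (SE 0.45, 95% interval −1.42 to 0.70, adjusted p = 0.693). With CD133 high replicate 1 left out Pecam1 was lower, with a difference of −0.87 (SE 0.22, adjusted p = 0.0409).

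Vwf encodes von Willebrand factor, the clotting glycoprotein of endothelium and megakaryocytes (chromosome 6, 125552948 to 125686679). Its values were 8.35, 7.05 and 6.96 on the CD133 high arrays and 8.05, 7.92 and 7.75 on the CD133 low arrays, a difference of −0.45 (SE 0.38, 95% interval −1.36 to 0.46, adjusted p = 0.553). Set against the CD133 low mean, CD133 high replicates 2 and 3 stood at −0.86 and −0.95 and replicate 1 at 0.45. Without replicate 1 the difference of Vwf was −0.90 (SE 0.16, adjusted p = 0.016).

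Emcn encodes endomucin, a sialomucin found mainly on venous and capillary endothelium (chromosome 3, 137341062 to 137431069). It read 8.89, 7.19 and 7.60 on the CD133 high arrays and 8.72, 8.72 and 8.30 on the CD133 low arrays. The difference of −0.69 (SE 0.43, 95% interval −1.71 to 0.33, adjusted p = 0.434) was the lowest among the 10 genes. Without CD133 high replicate 1 it was −1.18 (SE 0.21, adjusted p = 0.0164). In that comparison 3 of the 14 probe sets passed the threshold, those of Pecam1, Vwf and Emcn, all lower in the CD133 high fraction. Across the array 21.3% of probe sets passed there, 9.5% higher and 11.8% lower. As all 3 were lower, the share to read beside 3 of 14 is the 11.8%. By gene it was 3 of 10 lower, beside 14.6% of all genes. CD133 high replicate 1 set alone against the CD133 low arrays gave the opposite sign for these genes, with differences of 0.68 (Pecam1), 0.45 (Vwf) and 0.31 (Emcn) and adjusted p of 0.483, 0.51 and 0.706.

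**Figure D2:**
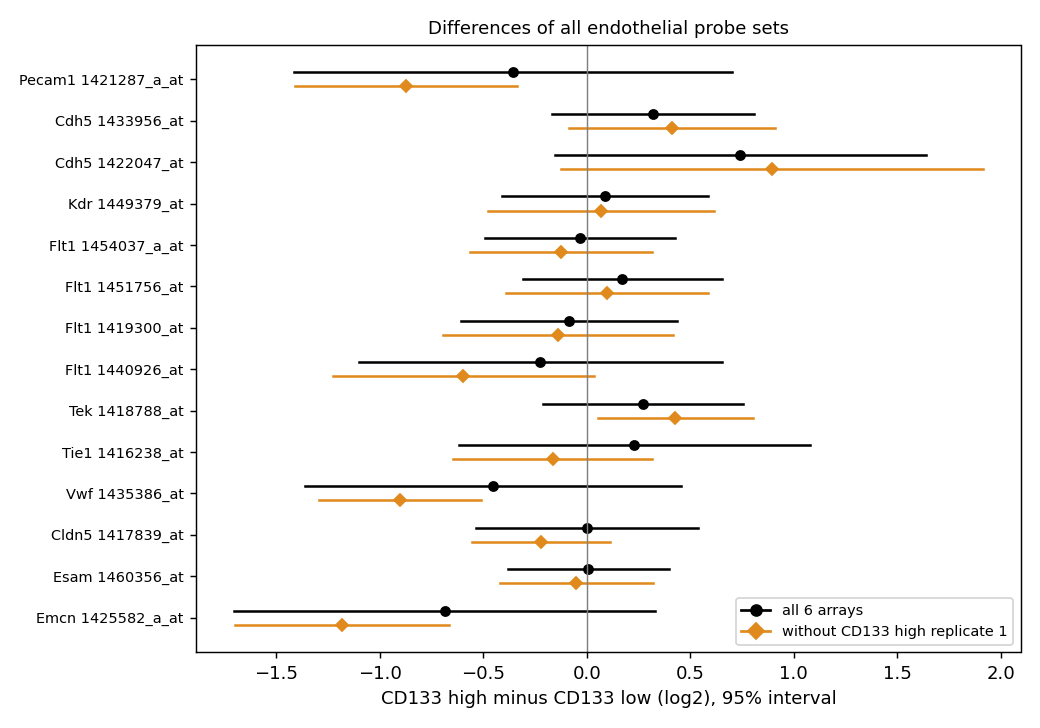
Difference CD133 high minus CD133 low (log2, x axis) for each of the 14 endothelial probe sets (y axis), with all 6 arrays (black circles) and without CD133 high replicate 1 (orange diamonds); lines are 95% intervals from limma. All 14 black lines cross 0, and the orange lines of Pecam1, Vwf, Emcn and Tek do not.

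The plot of differences shows that leaving out that array moved the 4 genes with the widest CD133 high range, Pecam1, Emcn, Vwf and Tie1, downward, and moved Tek and Cdh5 upward. As a description of the 10 genes together, the median deviation from the CD133 low mean was 0.23, −0.11 and −0.18 on CD133 high replicates 1, 2 and 3, against 0.11, 0.03 and −0.14 on CD133 low replicates 1, 2 and 3. The 5 genes outside the lists whose mean-centred profile over the 6 arrays came closest to the median profile of the 10, among 10545 genes with a mean of at least 7, were Phf23, 1110038B12Rik, Atg3, Vapa and S1pr3, with root mean square differences of 0.040 to 0.049. In all, 86 of the 10545 genes came within 0.1 of that profile. Shared regulation with the 10 genes was not tested.

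Ligands and co-receptors of the VEGF system passed the test in 0 of 8 genes in limma (0.253% of genes at their brightest probe set passed across the array), and 2 had an unadjusted p under 0.05, where the array had 18.2%. Their median difference was 0.31. Vegfa, the ligand of Kdr and Flt1, read 12.04, 11.75 and 12.03 on the CD133 high arrays and 12.04, 11.75 and 12.00 on the CD133 low arrays, a difference of 0.0092 (SE 0.17). Vegfc, which acts mainly through the lymphatic receptor FLT4, read 8.65, 9.58 and 9.94 on the CD133 high arrays, all above the 7.76, 8.19 and 8.22 on the CD133 low arrays (difference 1.33, SE 0.34, adjusted p = 0.276). The probe set of Vegfc is of a type whose probes may also match other transcripts. Those of Laptm5 and Epcam, named further on, are of the same type. Nrp2, a co-receptor for VEGF-C and semaphorins, did not overlap either, with 9.056, 10.004 and 10.274 on the CD133 high arrays and 8.944, 9.001 and 8.893 on the CD133 low arrays (difference 0.83, SE 0.31, adjusted p = 0.302). Nrp1, the co-receptor for VEGF-A, differed by 0.71 (SE 0.34, adjusted p = 0.347). Of the 8 genes, 2 were higher and 0 lower without overlap, beside 10.8% and 12.8% of all genes.

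Pgf, the placental growth factor that binds FLT1, was arranged like Pecam1, Vwf and Emcn, with 10.29, 8.59 and 8.77 on the CD133 high arrays and 9.74, 9.62 and 9.70 on the CD133 low arrays (difference −0.47, SE 0.43, adjusted p = 0.586). Vegfb, which encodes another ligand of FLT1, read 8.53, 4.47 and 5.22 on the CD133 high arrays and 7.54, 8.59 and 8.24 on the CD133 low arrays (difference −2.05, SE 0.998, adjusted p = 0.351). When CD133 high replicate 1 was left out, 4 of the 8 genes were higher and 2 lower in limma, where 26.3% of all genes passed, 11.7% higher and 14.6% lower. Those higher were Vegfc, Vegfd, Nrp1 and Nrp2, and those lower were Vegfb and Pgf.

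Angiopoietins and partners of the Tie receptors had a median difference of 0.47 over 7 genes. In limma 0 passed the threshold and 1 had an unadjusted p under 0.05, beside 18.2% of all genes. Ptprb, a phosphatase that restrains TIE2 signalling in endothelium, read 9.08, 8.91 and 9.04 on the CD133 high arrays, all above the 8.56, 8.16 and 8.58 on the CD133 low arrays (difference 0.58, SE 0.17, adjusted p = 0.297). Angpt2, the context-dependent ligand of TIE2, read 8.87, 8.24 and 8.39 on the CD133 high arrays and 8.18, 7.85 and 8.06 on the CD133 low arrays, again without overlap (difference 0.47, SE 0.21, adjusted p = 0.333). Angpt1, the activating ligand of TIE2, differed by 0.64 (SE 0.42, adjusted p = 0.450). Svep1, a matrix protein reported to bind TIE1, differed by 0.66 (SE 0.39), and Angptl4 by 0.32 (SE 0.17, adjusted p = 0.375). In this list 3 of 7 genes lay higher without overlap, where 10.8% of all genes did. Of the 7, only Svep1 passed when CD133 high replicate 1 was left out, beside 26.3% of all genes.

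**Figure D3:**
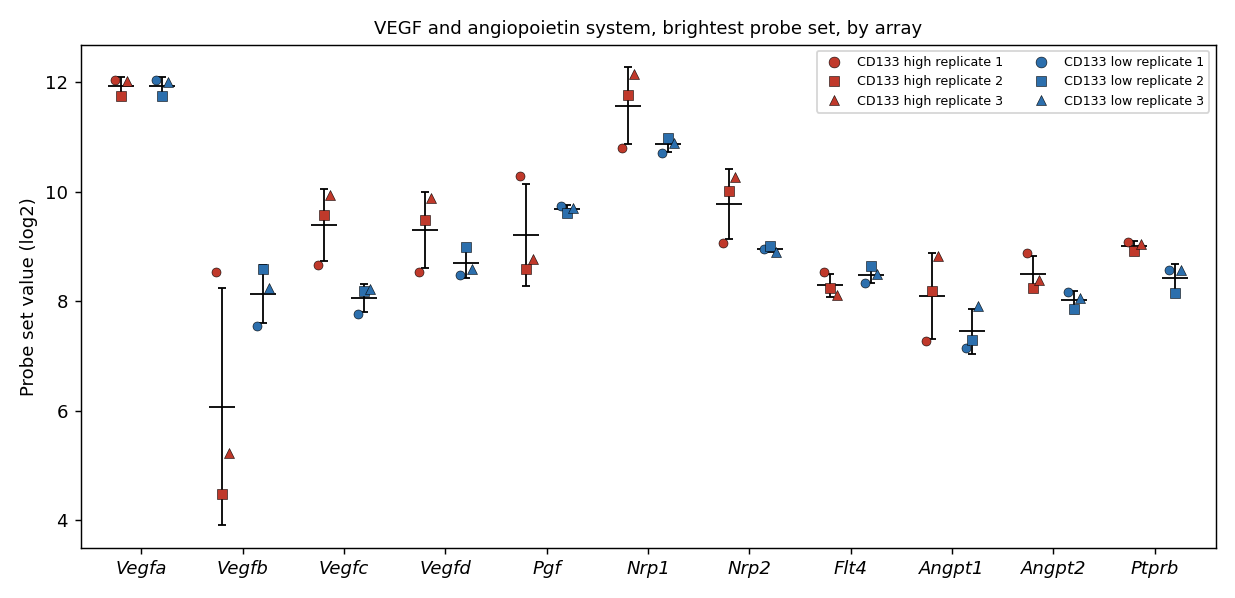
Log2 value of the brightest probe set of VEGF ligands, their co-receptors, Flt4, the angiopoietins Angpt1 and Angpt2, and Ptprb on the 3 CD133 high arrays (red, left of each pair) and the 3 CD133 low arrays (blue, right); lines are means and bars SDs over 3 arrays. Vegfa overlaps fully, Vegfc, Nrp2, Angpt2 and Ptprb do not overlap, and Pgf and Vegfb have CD133 high replicate 1 apart from replicates 2 and 3. Of all genes, 10.8% lie higher without overlap.

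The plot of the ligands shows CD133 high replicate 1 nearest to the CD133 low arrays for Nrp1, Nrp2, Vegfc, Vegfd and Angpt1. A wider list of 40 endothelial surface and secreted genes, which includes none of the 10, had a median difference of 0.05, with 21 positive and 19 negative differences. No gene of it passed in limma with all arrays, and 8 had an unadjusted p under 0.05, beside 18.2% of all genes. Those with the smallest p were Adgrf5, an adhesion receptor of endothelium (0.69, SE 0.17, adjusted p = 0.263), Efnb2, the ephrin of arterial endothelium (0.74, SE 0.19, adjusted p = 0.276), Cyyr1 (1.33, SE 0.39) and Calcrl, the adrenomedullin receptor (1.09, SE 0.35). In all 4 the CD133 high arrays lay above the CD133 low arrays, whereas 6 of the 40 genes were higher and 4 lower without overlap, beside 10.8% and 12.8% of all genes. Eng, a TGF-beta co-receptor of endothelium, read 8.41, 8.89 and 9.66 on the CD133 high arrays and 8.43, 8.22 and 8.30 on the CD133 low arrays (difference 0.67, SE 0.31, adjusted p = 0.340). Leaving out CD133 high replicate 1 left 7 of the 40 higher and 7 lower, beside 11.7% and 14.6% of all genes.

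Transcription factors of endothelium showed 0 of 21 genes past the threshold and 6 with an unadjusted p under 0.05 in limma (18.2% of all genes), with a median difference of 0.11. Mef2c, a MADS-box factor also active in muscle and B cells, differed by −1.20 (SE 0.22, adjusted p = 0.139), and Lyl1, a helix-loop-helix factor shared with blood progenitors, by −0.75 (SE 0.22). Hhex, a homeobox factor also active in endoderm, differed by 0.96 (SE 0.22, adjusted p = 0.241), and Nr2f2, a nuclear receptor of venous endothelium, by −0.51 (SE 0.16). These 4 genes had the smallest p of the list, and in them the fractions did not overlap. Of the 21 genes, 4 were higher and 5 lower without overlap, beside 10.8% and 12.8% of all genes. In the comparison without CD133 high replicate 1, 4 of the 21 were higher and 2 lower, beside 11.7% and 14.6% of all genes.

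Lymphatic endothelial genes had a median difference of 0.38 over 6 genes. In limma 0 passed the threshold and 0 had an unadjusted p under 0.05, beside 18.2% of all genes. Lyve1, the hyaluronan receptor of lymphatic vessels that some macrophages also carry, read 8.64, 10.43 and 10.79 on the CD133 high arrays and 8.25, 8.76 and 8.99 on the CD133 low arrays (difference 1.29, SE 0.55, adjusted p = 0.323). Prox1, the factor that sets lymphatic identity, differed by 1.65 (SE 0.72), at values down to 2.70 on the CD133 low arrays, and Mmrn1 by 0.74 (SE 0.35). Flt4, the VEGF-C receptor, differed by −0.20 (SE 0.18). Lyve1 alone of the 6 passed without CD133 high replicate 1, beside 26.3% of all genes.

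Genes of the cell junctions that the cadherin and claudin belong to had a median difference of 0.31 over 11 genes, 9 of them positive. In limma 0 passed the threshold and 2 had an unadjusted p under 0.05, beside 18.2% of all genes. Cdh2, N-cadherin, which endothelium shares with many cells, differed by 0.86 (SE 0.26, adjusted p = 0.297), Tjp1, the scaffold ZO-1, by 0.63 (SE 0.20), Ctnnb1, beta-catenin, by 0.35 (SE 0.17) and Ctnnd1, p120-catenin, by 0.37 (SE 0.22). The first 3 of these did not overlap between the fractions, and 5 of the 11 were higher without overlap, beside 10.8% of all genes. Of the 11, 3 were higher without CD133 high replicate 1, beside 11.7% of all genes.

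Lists of other cell types were read beside the endothelial genes. Pan-leukocyte genes had median deviations of 0.22, −0.65 and −0.82 on CD133 high replicates 1, 2 and 3. On the CD133 low arrays they stood at −0.02, 0.0049 and 0.02. Their order over the CD133 high replicates was that of the 10 endothelial genes. Pericyte and smooth muscle genes (0.08, 0.0039 and −0.08) and endothelial transcription factors (0.08, 0.06 and −0.02) had this order too. Summed over the 10 pan-leukocyte genes on the linear scale, their level was 45703 to 82153 on the CD133 high arrays and 73994 to 75018 on the CD133 low arrays, and none of them was listed at 0. Of these 10 genes 0 passed with all arrays and 6 were lower without CD133 high replicate 1 in limma, beside 14.6% of all genes. With all arrays 2 had an unadjusted p under 0.05, beside 18.2% of all genes. Coro1a, Cd52, Laptm5 and Lcp1 differed by −0.83, −1.20, −0.64 and −0.82, and Ptprc, which encodes CD45, by 0.03. The summed level of the 10 endothelial genes was 3737, 2703 and 2784 on CD133 high replicates 1, 2 and 3 and 3411, 3098 and 2802 on the CD133 low arrays. The part of leukocytes, of the hybridisation controls or of RNA quality in the arrangement of Pecam1, Vwf and Emcn was not tested.

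Platelet and megakaryocyte genes, which could bear on Vwf, Esam and Pecam1, had median deviations of −0.0015, −0.06 and 0.02 on the CD133 high arrays. In limma 0 of 11 passed the threshold and 1 had an unadjusted p under 0.05, beside 18.2% of all genes. The summed level of the 11 was 9195 to 11406 on the CD133 high arrays and 9295 to 9909 on the CD133 low arrays, with none listed at 0. Most of this sum came from Pf4, with log2 means of 12.86 in the CD133 high and 12.83 in the CD133 low fraction. Pf4, platelet factor 4, differed by 0.04 (SE 0.15), Itga2b, the platelet integrin chain, by −0.40 (SE 0.23) and Gfi1b by −0.35 (SE 0.20). Gp1bb differed by 0.92 (SE 0.38, adjusted p = 0.315 in limma) and Gp6 by −1.10 (SE 0.50, adjusted p = 0.334). Gp6 was dim, near the 13.5 percentile of all probe sets, with values down to 2.50 on the CD133 high arrays. Pericyte and smooth muscle genes had a median difference of −0.02 over 12 genes. In limma 0 passed the threshold and 0 had an unadjusted p under 0.05, beside 18.2% of all genes. In that list Acta2 differed by −0.31 (SE 0.15), Rgs5, a pericyte gene, by −0.41 (SE 0.21), Kcnj8 by −0.53 (SE 0.33) and Pdgfrb, the receptor that draws pericytes to vessels, by 0.21 (SE 0.16).

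Fibroblast genes had a median difference of 0.12 over 8 genes. In limma 0 passed the threshold and 1 had an unadjusted p under 0.05, beside 18.2% of all genes. Thy1 differed by −1.16 (SE 0.31), Pdgfra by 0.59 (SE 0.29), Lum by 0.37 (SE 0.23) and Col1a1 by 0.38 (SE 0.25). Epithelial genes, which mark the tumour cells, had a median difference of −0.13 over 9 genes. In limma 0 passed the threshold and 1 had an unadjusted p under 0.05, beside 18.2% of all genes. In that list Epcam differed by 0.18 (SE 0.20), Cldn7 by −0.73 (SE 0.21), Cldn4 by −0.42 (SE 0.19), Krt8 by 0.41 (SE 0.18) and Krt18 by −0.42 (SE 0.32). The plot of lists by array places the endothelial genes among these groups.

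**Figure D4:**
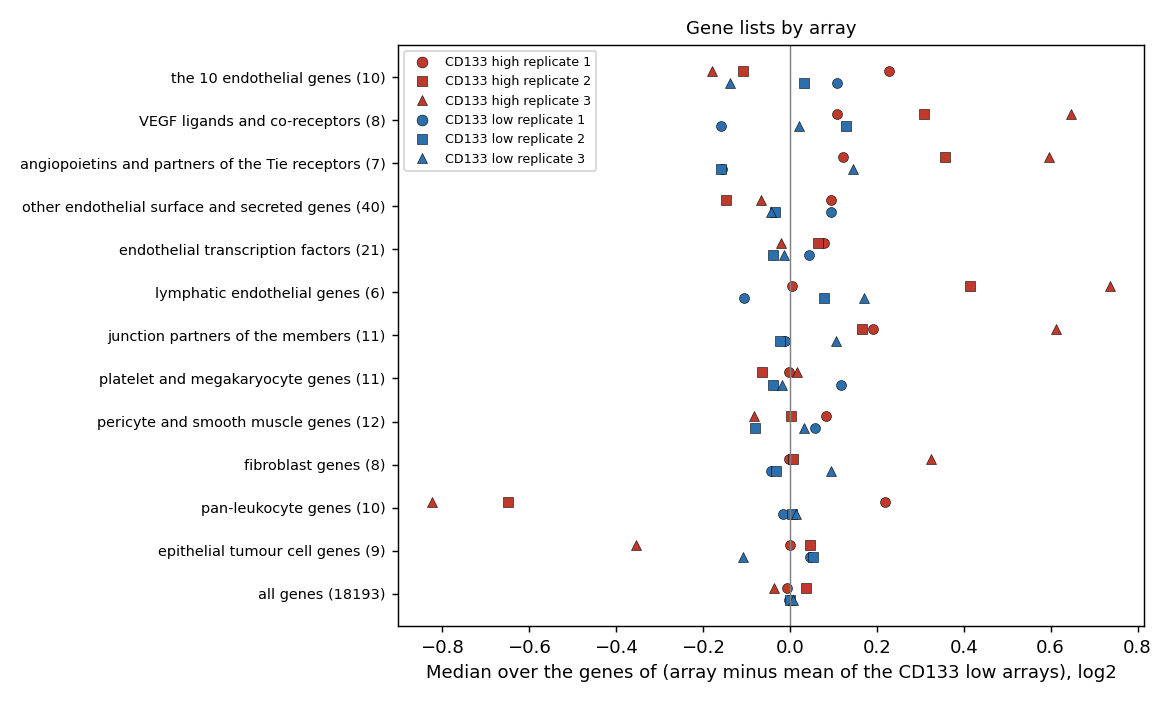
Median over the genes of each list (number measured in parentheses) of the deviation from the mean of the CD133 low arrays (log2, x axis), for each CD133 high array (red, upper points) and CD133 low array (blue, lower points). The 10 endothelial genes run from −0.18 to 0.23 on the CD133 high arrays, and pan-leukocyte genes from −0.82 to 0.22.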

How the data were processed

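Expression was measured on 3 CD133 high and 3 CD133 low Affymetrix arrays. The table as deposited holds log2 values, a scale inferred from the numbers: as powers of 2, all of those below 50 are multiples of 0.01 to within 0.0001. RNA was extracted with a kit from Ambion and labelled as biotinylated cRNA, per the labels' protocols. The method of summarising and normalizing probe sets was not given in the sources used here, and precision is limited by how many arrays there were.

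Groups came from the labelled fraction, and replicates were numbered in accession order. The 64 control probe sets were left out. The platform annotation gives one gene for 34945 probe sets and several for 932, and 9160 remain unnamed. A RefSeq table (GRCm38.p6) matched 34741 by Entrez gene and changed 0 symbols. A gene's brightest probe set has the highest mean over the 6 arrays.

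Groups were tested in limma 3.58.1 (R 4.3.3; lmFit and eBayes with a variance trend, two-sided, Benjamini-Hochberg over 45037 probe sets, threshold 0.05), in steps tested on simulated data. Besides the 10 genes, 11 lists held 147 genes, of which 142 were measured. Named are the 10 genes, Prom1, 12 genes set by name, up to 4 genes per list with the smallest p, any past the threshold, and the 5 genes nearest in profile. The members and lists were chosen with earlier results of these data known. The alternatives covered normalization, dim probe sets, the variance model, array weights, a covariate, arrays left out, the threshold and the choice of probe set.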

Additional observations from a re-analysis of the deposited data

How the results depend on the processing

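No paired analysis was possible because the labels number no replicates. The count of endothelial probe sets past the threshold in limma was 0 under every alternative run other than leaving out arrays, including an adjusted p of 0.1, and ranged from 0 to 3 when single arrays were left out, the 3 coming without CD133 high replicate 1. The median difference of the 10 genes, 0.0047, ranged from −0.145 to 0.0878 over the arrays left out and from −0.145 to 0.235 over all alternatives. Leaving out single arrays gave ranges of −0.165 to 0.437 for Tie1, −0.221 to 0.139 for Cldn5, −0.0886 to 0.126 for Esam, −0.0247 to 0.219 for Kdr and −0.125 to 0.0892 for Flt1, so each changed sign, and of −0.873 to −0.0218 for Pecam1, −0.904 to −0.205 for Vwf and −1.18 to −0.335 for Emcn. The sign turned with CD133 high replicate 1 alone for Pecam1 (0.68), Flt1 (0.15), Tek (−0.0403), Vwf (0.45) and Emcn (0.31), a fit that assumes the lone array to vary like the CD133 low arrays. With the hybridisation controls as a covariate it turned for Pecam1 (0.75), Flt1 (0.0404), Tek (−0.0591), Vwf (0.38) and Emcn (0.26). Array weights turned Kdr (−0.0125), Tie1 (−0.0166), Cldn5 (−0.15) and Esam (−0.0826), equal medians Cldn5 (−0.046) and Esam (−0.0395), and quantile normalization Cldn5 (−0.0228); none of these passed the threshold, and the cause was not tested. Cdh5 kept a positive difference, of 0.136 to 0.531, under all 18 alternatives. Those for the threshold, dim probe sets, values below 5 and the variance trend could not change its difference, and left it at 0.32. The adjusted p of Pecam1 ranged from 0.0409 to 0.989, that of Vwf from 0.016 to 0.862 and that of Emcn from 0.0164 to 0.922. Over all probe sets the 82 calls became 9603 without CD133 high replicate 1, 4808 with array weights, 185 with a robust trend, 175 without the dimmest 50%, 164 with equal medians, 157 with equal 75th percentiles, 36 with values below 5 set to 5, 7 without a variance trend, and 0 or 1 without any other single array or with CD133 high replicate 1 alone.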

Other observations

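The genes in this paragraph were chosen after their values were seen, from the list of 40 endothelial surface and secreted genes, and none passed the threshold with all arrays. Icam2, an adhesion molecule of endothelium and leukocytes, read 7.95, 4.26 and 4.81 on CD133 high replicates 1, 2 and 3, against 7.60, 7.57 and 7.39 on the CD133 low arrays (difference −1.85, SE 0.90, adjusted p = 0.351 in limma). Its arrangement was that of Pecam1, Vwf and Emcn. Podxl, a sialomucin of endothelium and podocytes, read 9.23, 7.83 and 6.79 on the CD133 high arrays, all below the 9.59, 9.58 and 9.57 on the CD133 low arrays (difference −1.63, SE 0.56). Egfl7, a secreted protein of endothelium, lay the other way, with 7.98, 9.23 and 9.22 on the CD133 high arrays and 7.77, 7.80 and 7.98 on the CD133 low arrays (difference 0.96, SE 0.35). Esm1, a proteoglycan of sprouting endothelial tip cells, read 9.56, 8.50 and 9.27 on the CD133 high arrays, all above the 8.20, 8.19 and 8.48 on the CD133 low arrays (difference 0.82, SE 0.29). CD133 high replicate 1 was the highest of the CD133 high arrays for Esm1 and the lowest for Egfl7. Without that array the differences in limma were −2.99 for Icam2 (adjusted p = 0.0031), −2.27 for Podxl (adjusted p = 0.0081), 1.38 for Egfl7 (adjusted p = 0.0035) and 0.60 for Esm1 (adjusted p = 0.151). In that comparison 26.3% of all genes passed. With all arrays 10.8% of all genes were higher and 12.8% lower without overlap. The probe set of Egfl7 is, like that of Vegfc, of a type whose probes may also match other transcripts.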
